A study of Rattus norvegicus with 4 samples.

Results

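The antioxidant and glutathione enzymes are the proteins that remove superoxide and peroxides, keep thiols reduced, make glutathione and couple it to reactive compounds. They were taken here as every gene of the array whose symbol starts with Gst, Gpx, Prdx, Txn or Sod followed by a digit, together with Cat, Hmox1, Hmox2, Nqo1, Gclc, Gclm, Gsr, Gss, Srxn1, Nfe2l2 and Keap1. The rule used names and no measured value. It gave 51 genes with 61 probes, out of 8899 named genes with 10768 probes. RefSeq holds 78 symbols, pseudogenes aside, that match the rule, and the 27 without a named probe, such as Gpx7, Gpx8, Gsta4, Gstz1 and Txnrd3, were not analysed here.

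The rats were male Wistar, 10 weeks of age at the start, and were kept sedentary (10 rats) or given a wheel for 4 weeks without resistance (wheel running, WR, 8 rats) or with it (resistance wheel running, RWR, 8 rats). The resistance of the RWR wheels was 4.5 g in the first week and was raised to 30% of body weight. Hippocampal RNA was pooled within each group and hybridized in 2 colours to 4 chips of a rat oligo array. The amounts of RNA that the authors give point to fewer replicates in a pool than rats in a group. The labels do not say how many rats each pool held. Chips 1 and 2 set the WR pool against the sedentary pool and chips 3 and 4 the RWR pool against the sedentary pool, with Cy3 and Cy5 exchanged between the chips of a pair. Chips 1 and 3 held the running pool in Cy5, and chips 2 and 4 held it in Cy3. Each group was thus measured as 1 pool, so that the chips of a pair repeat the same RNA, the spread between rats is unknown and no test between the conditions was made. The labels do not say that a single sedentary pool was used on all 4 chips.

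Superoxide dismutases turn superoxide into hydrogen peroxide, and catalase, the glutathione peroxidases and the peroxiredoxins break peroxides down. The peroxidases take their electrons from glutathione or thioredoxin, which glutathione reductase and the thioredoxin reductases restore with NADPH. Glutamate-cysteine ligase and glutathione synthetase make glutathione, and the glutathione S-transferases attach it to electrophiles. NRF2, the product of Nfe2l2, is held back by KEAP1 and, when released, binds antioxidant response elements in front of many of these genes. Brain tissue uses much oxygen and holds easily oxidized lipids, and astrocytes supply neurons with precursors of glutathione.

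The core of the antioxidant response element was searched for as the letters TGACNNNGC on both strands in the 300 bases from 250 before to 50 after the start of each gene, in RefSeq sequence of the GRCr8 build. It was present for 16 of the 44 genes of the set that had an entry (36.4%) and for 13.1% of 27457 genes with an entry. Not every well-known NRF2 target of the set held it. Nqo1, Gclc and Srxn1 had an entry without the core, and Hmox1 had no entry. The following stretches are shown because they carry the core within this window at well-known NRF2 targets of the set. They run 5′ to 3′ on the strand of the gene, and the capitals mark the core or its reverse complement.
Gclm, chr2:213031953-213031981, plus strand: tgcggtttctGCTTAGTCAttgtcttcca
Prdx1, chr5:135383761-135383789, plus strand: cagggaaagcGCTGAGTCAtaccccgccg
Txnrd1, chr7:22755964-22755992, minus strand: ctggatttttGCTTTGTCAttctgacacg
Gstp1, chr1:210769748-210769776, minus strand: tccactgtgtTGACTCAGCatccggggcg
Gsta3, chr9:31154962-31154990, plus strand: aactcaggcaTGACTTCGCattttttcct
Gsta1, chr9:31216484-31216512, minus strand: aactcaggcaTGACTTTGCatttttcttc
The stretches of Gsta1 and Gsta3 share their first bases, and the core of Gsta1 lies 30 bases past the start of the gene (17 bases before it in Gsta3). A match of these letters is a description of the sequence and not of binding.

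Before the ratios, the chips themselves need a word. Between 67.5 and 77.6% of the noncontrol spots in Cy3 and between 71.7 and 82.5% in Cy5 were well above background, the software's test of a spot against its local background. No noncontrol spot was saturated. Turned to running over sedentary, the log2 ratios of all noncontrol probes correlated at r = -0.76 between chips 1 and 2 and at r = -0.69 between chips 3 and 4, but at r = 0.71 between chips 1 and 3 and at r = 0.70 between chips 2 and 4. The ratios of the probes thus went with the dye orientation more than with the pool, and a value on a single chip is not read as a difference between the pools here. Of 8 neuron genes looked for, Snap25, Syt1, Camk2a and Wfs1 had a named probe. These 4 and all 7 astrocyte genes looked for passed the background test with either dye on all 4 chips.

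No gene of the set was called in either comparison. A gene was called where its brightest probe exceeded 1.5-fold, or stayed under 0.75-fold, on each chip of the pair and the deposited single-chip p-value was under 0.01 on each. Over all named genes 0% were called higher in WR and 0% in RWR, and 0.0674% were called lower in WR and 0.0674% in RWR, so that a set of this size would hold few calls at that rate. Of the 51 genes, 43 passed the background test with either dye on all 4 chips. Their mean log2 ratio of WR over sedentary ran from -0.20 (Txnip) to 0.20 (Gstm4) with a median of -0.0023, and that of RWR over sedentary from -0.22 (Txnip) to 0.27 (Gpx3) with a median of -0.023. The medians over the 5928 named genes measured as well were 0.0002 and -0.0014. The error that the software gave each of these log2 ratios on a chip was 0.20 to 0.34, and the lowest p-value of any of the 43 genes on any chip was 0.051, for Prdx6 on chip 1. Within 0.1 of zero lay 34 of the 43 genes in WR (79.1%, against 81.8% of the named genes) and 37 in RWR (86.0%, against 78.6%).

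**Figure D1:**
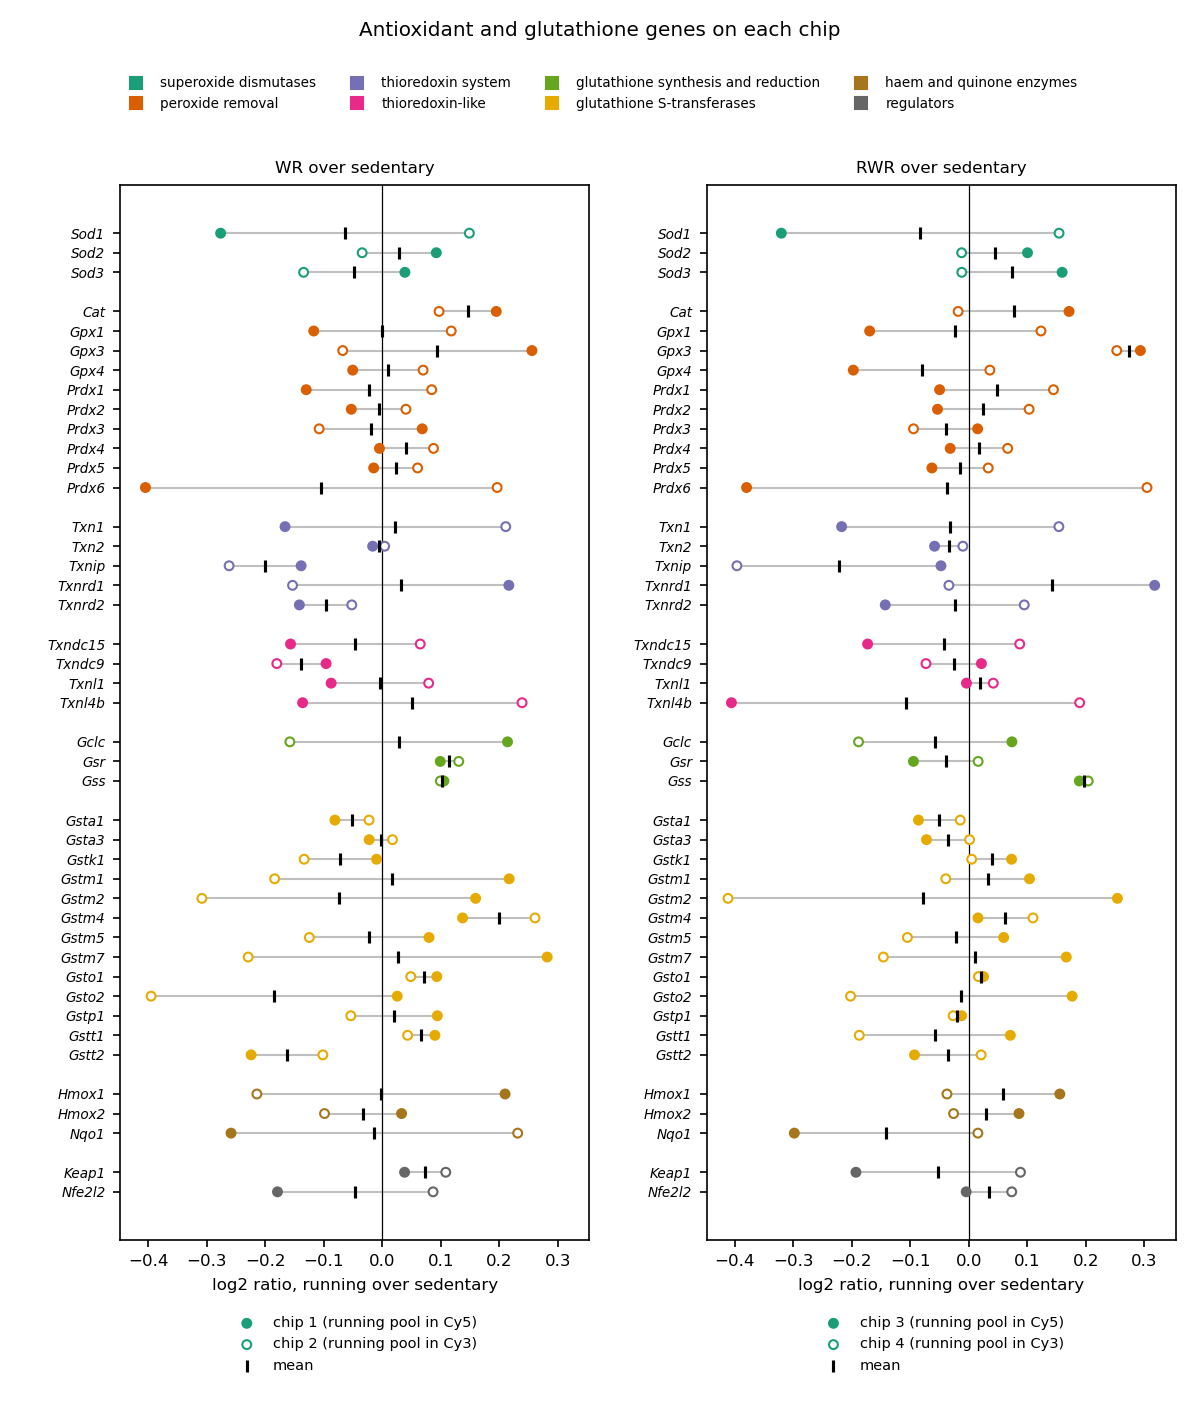
Log2 ratio of running over sedentary (horizontal axis) of the 43 genes well above background, by role, for the WR pair of chips on the left and the RWR pair on the right. Filled points have the running pool in Cy5, open points in Cy3, and the bar is their mean. Most lines cross zero, Txnip lies below it on all 4 chips, and Gss and Gstm4 lie above it on all 4.

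Few genes of the set lay on one side of zero on both chips of a pair, and the same held for the named genes at large. In WR 7 of the 43 genes were above zero on both chips (14.7% of the named genes were) and 6 were below it (15.3%). In RWR 5 were above zero (15.8%) and 4 were below it (17%). Above zero on all 4 chips were Gss, Gstm4 and Gsto1 (5.38% of the named genes were), and below it on all 4 were Txnip and Gsta1 (5.94%). These shares describe the chips and single out none of the genes.

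In the thioredoxin system the lowest values belonged to Txnip, whose product binds thioredoxin and blocks it and also restrains glucose uptake. The processed signal of Txnip was 321 in the sedentary and 292 in the WR pool on chip 1, and 389 and 324 on chip 2. On chip 3 it was 439 in the sedentary and 424 in the RWR pool, and on chip 4 it was 446 and 339. The running pool was the lower one on every chip. The sedentary signal spread from 321 to 446 between chips, which is wider than any of the 4 differences. Signals were not scaled between chips, so this spread is not a yardstick for a difference within a chip. The log2 ratios were -0.14 and -0.26 for WR (mean -0.20, 0.871-fold) and -0.048 and -0.40 for RWR (mean -0.22, 0.857-fold). Txnrd2, the mitochondrial thioredoxin reductase, stood at -0.14 and -0.052 in WR and on both sides of zero in RWR, at -0.14 and 0.095. The cytosolic reductase Txnrd1 went with the dye, at 0.22 and -0.15 in WR and 0.32 and -0.034 in RWR, while its dimmest probe was above zero by 0.051 to 0.10 on all 4 chips. Txn1, the cytosolic thioredoxin, also did, at -0.17 and 0.21 in WR and -0.22 and 0.15 in RWR, and the mitochondrial Txn2 was within 0.06 of zero on every chip.

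Genes of glutathione synthesis and reduction were 4, of which Gclm, the regulatory subunit of glutamate-cysteine ligase, was not well above background throughout. Gss, glutathione synthetase, had nearly equal values on the chips of each pair. Its processed signal was 203 in the sedentary and 218 in the WR pool on chip 1 and 192 and 206 on chip 2, and it was 231 in the sedentary and 264 in the RWR pool on chip 3 and 190 and 219 on chip 4. The running pool was the higher one on each chip. Across chips, which were not scaled to each other, the sedentary values (190 to 231) overlapped those of both running pools. The log2 ratios were 0.11 and 0.099 in WR (mean 0.10, 1.07-fold) and 0.19 and 0.20 in RWR (mean 0.20, 1.15-fold), each below the software's error for the chip. With normexp or no background correction the means were 0.032 or 0.033 in WR and 0.14 or 0.12 in RWR. Gsr, glutathione reductase, stood at 0.099 and 0.13 in WR (mean 0.12, and 0.066 with no background correction) and at -0.095 and 0.016 in RWR. The catalytic subunit Gclc followed the dye, at 0.21 and -0.16 in WR and 0.074 and -0.19 in RWR. Gclm had log2 ratios of -0.95 and 1.94 in WR and -0.55 and 2.76 in RWR, on processed signals between 2.52 and 29.2, and the value of neither pool can be ordered from them.

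**Figure D2:**
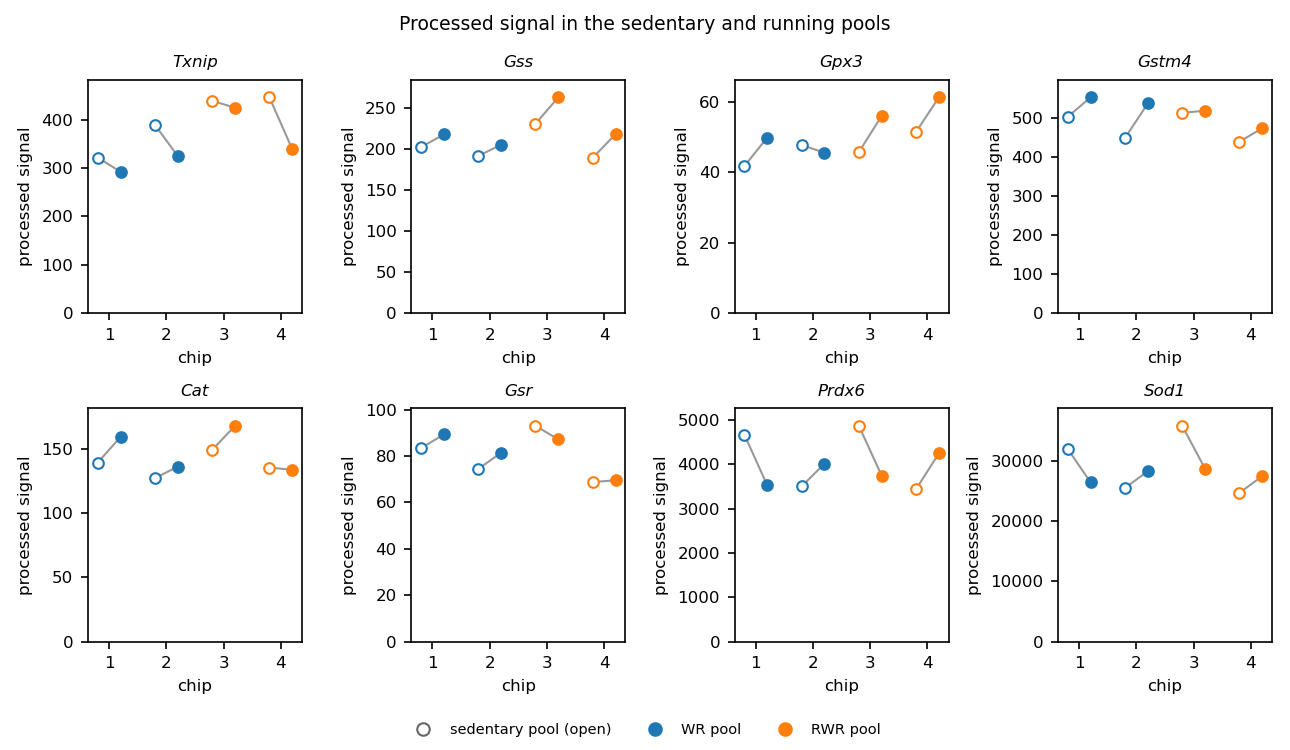
Processed signal (vertical axis, linear from zero, scaled for each gene) of 8 genes on each chip, with the sedentary pool as an open point, the WR pool in blue and the RWR pool in orange, and the points of a chip joined. Txnip slopes down and Gss and Gstm4 slope up on all 4 chips, whereas Prdx6 and Sod1 slope down on chips 1 and 3 and up on chips 2 and 4.

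Among the enzymes of peroxide removal, Gpx3, the secreted glutathione peroxidase, reached the highest mean in RWR of the 43 genes well above background. Its processed signal was 45.8 in the sedentary and 56.1 in the RWR pool on chip 3, and 51.5 and 61.3 on chip 4. Both RWR values were above all 4 sedentary ones (41.8 to 51.5), though the chips were not scaled to each other, and the signal was low. The log2 ratios were 0.293 and 0.253 (mean 0.27, 1.21-fold), against an error of 0.244 and 0.246. Gpx3 was the one gene of the 43 that exceeded the error in the same direction on both chips. The excess was small, with deposited single-chip p-values of 0.23 and 0.30. How many of all named genes exceeded their error in this way was not counted, so Gpx3 is not singled out. With normexp or no background correction its mean in RWR was 0.13 or 0.12. In WR it stood on both sides of zero, at 0.26 and -0.067. Cat, catalase, was at 0.19 and 0.097 in WR and at 0.17 and -0.018 in RWR. Gpx4, which protects membrane lipids from peroxidation, was at -0.050 and 0.070 in WR and at -0.20 and 0.036 in RWR, and the cytosolic Gpx1 was at -0.12 and 0.12 in WR and at -0.17 and 0.12 in RWR. The 5 peroxiredoxins Prdx1 to Prdx5 had means between -0.023 and 0.042 in WR and between -0.040 and 0.047 in RWR. Srxn1, sulfiredoxin, which repairs overoxidized peroxiredoxins, Gpx2 and Gpx6 were not well above background throughout, and Gpx2 was listed at 0 on every chip.

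Prdx6, the 1-cysteine peroxiredoxin, and Sod1, the cytosolic copper and zinc superoxide dismutase, were bright probes whose ratios went with the dye. The log2 ratio of Prdx6 was -0.40 on chip 1 and -0.38 on chip 3, with the running pool in Cy5, and 0.20 on chip 2 and 0.30 on chip 4, with it in Cy3. For Sod1 the values were -0.28 and -0.32 on chips 1 and 3 and 0.15 and 0.15 on chips 2 and 4. The means were -0.10 in WR and -0.038 in RWR for Prdx6 and -0.064 and -0.083 for Sod1, and a second probe of Sod1 had means of -0.073 and -0.059. Sod2, the mitochondrial enzyme, had means of 0.029 in WR and 0.044 in RWR, and Sod3, the extracellular one, of -0.048 and 0.074. No superoxide dismutase was on one side of zero on both chips of a pair.

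This was the usual case. In WR 30 and in RWR 34 of the 43 genes lay on opposite sides of zero on the chips of a pair. In both pairs, with the same dye in the lead, 27 did so. Most named genes were not on one side either, since 14.7% were above and 15.3% below zero on both chips in WR. In RWR these shares were 15.8% and 17%. The size of the dye term over the named genes is not given here. The dye term, that is, the difference between the chips of a pair divided by 2, had a median size of 0.074 in WR and 0.082 in RWR, above the median size of the mean log2 ratio (0.046 and 0.039). Across the 43 genes the dye terms of both pairs correlated at r = 0.90, which is given as a description, since each gene keeps its probe in both pairs and the genes are not independent replicates.

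**Figure D3:**
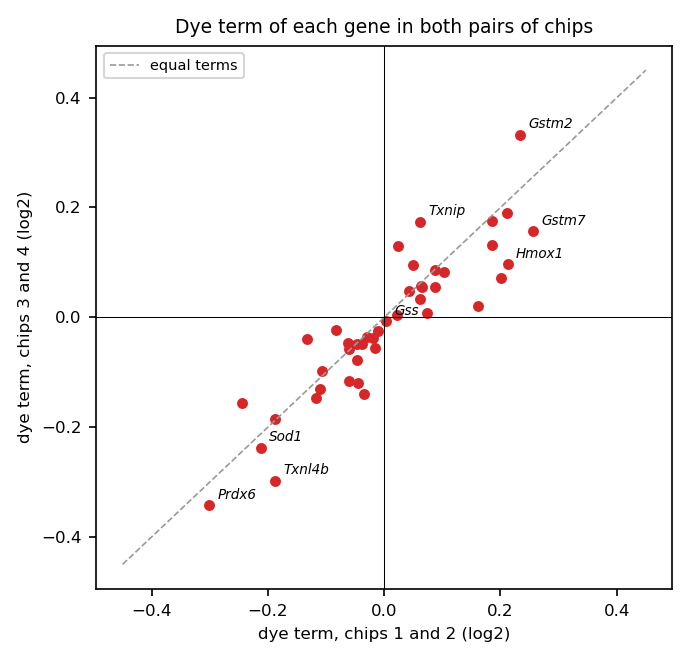
Dye term of each of the 43 genes, in log2 units, in the WR pair of chips (horizontal axis) and in the RWR pair (vertical axis), with the dashed line marking equal terms. Prdx6 and Sod1 lie at the lower left and Gstm2 and Gstm7 at the upper right, while Gss lies next to zero.

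The glutathione S-transferases were the largest family, with 15 genes and 13 of them well above background. Their mean log2 ratios lay between -0.18 (Gsto2) and 0.20 (Gstm4) in WR and between -0.079 (Gstm2) and 0.063 (Gstm4) in RWR, with medians of -0.0023 and -0.020. Gstm4, of the cytosolic mu class, stood at 0.14 and 0.26 in WR (mean 0.20, 1.15-fold) and at 0.016 and 0.11 in RWR (mean 0.063, 1.04-fold), which puts it above zero on all 4 chips. Its processed signal was 503 and 449 in the sedentary and 553 and 538 in the WR pool on chips 1 and 2. The other mu genes that were well above background throughout, Gstm1, Gstm2, Gstm5 and Gstm7, lay on opposite sides of zero on the chips of each pair, with Gstm1 at 0.22 and -0.18 and Gstm7 at 0.28 and -0.23 in WR. Genes of this class are close to each other in sequence, and whether each probe detects 1 of them was not tested. Gsto1, of the omega class, was above zero on all 4 chips by 0.016 to 0.093, and Gsta1, of the alpha class, was below it by 0.015 to 0.086. Gstp1, the pi class enzyme, had means of 0.020 in WR and -0.020 in RWR. Gstt2, of the theta class, stood at -0.22 and -0.10 in WR, but its second probe had a mean of 0.012 there, and the median over both probes was -0.075.

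The means of Hmox1, Hmox2 and Nqo1 were -0.0021, -0.033 and -0.013 in WR and 0.059, 0.030 and -0.14 in RWR. Hmox1 and Hmox2 break down haem and Nqo1 reduces quinones, and Hmox1 and Nqo1 are used as readouts of NRF2. Nqo1 was at -0.26 and 0.23 in WR and at -0.30 and 0.015 in RWR, Hmox1 was at 0.21 and -0.21 in WR and at 0.16 and -0.037 in RWR, and each thus spanned zero in both pairs. Of the regulators, Nfe2l2 stood at -0.18 and 0.087 in WR and at -0.0045 and 0.073 in RWR, and Keap1 at 0.038 and 0.11 in WR and at -0.19 and 0.088 in RWR. Among genes well above background with a promoter entry, the 13 with the response element core had medians of 0.020 in WR and 0.010 in RWR, and the 23 without it had medians of -0.0039 and -0.024. For those with the core the means ran from -0.052 to 0.052 in WR and from -0.11 to 0.14 in RWR, and for the others from -0.18 to 0.20 and from -0.14 to 0.27. Both pairs of ranges overlap.

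**Figure D4:**
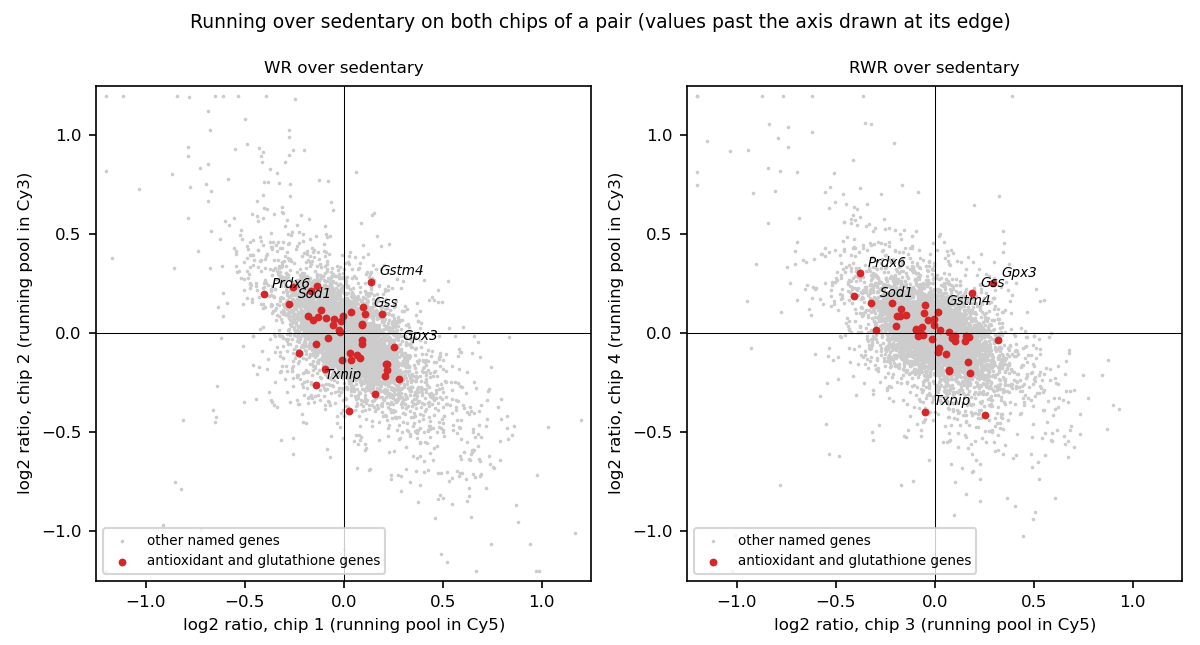
Log2 ratio of running over sedentary on the chip with the running pool in Cy5 (horizontal axis) against that on the chip with it in Cy3 (vertical axis), for WR on the left and RWR on the right. Red points are the 43 antioxidant and glutathione genes and grey points the other named genes well above background, and the cloud runs from upper left to lower right in both panels, with Txnip at the lower left of zero and Gstm4 and Gss at the upper right.

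RWR was set against WR between chips of the same dye orientation, as chip 3 minus chip 1 and chip 4 minus chip 2, in which the dye term of a probe and, if 1 sedentary pool was used, the sedentary level cancel. The mean difference of log2 ratios of the 43 genes ran from -0.16 (Txnl4b) to 0.18 (Gpx3), with a median of -0.0046. Above zero on both differences were 12 of them (28.5% of the named genes were) and below it on both were 15 (29.7%). Gstm4 was lower in RWR on both, by differences of -0.12 and -0.15 (0.910-fold), and so was Gsr, at -0.19 and -0.11. Gss was higher on both, at 0.083 and 0.10 (1.07-fold), and so were Sod3, at 0.12 and 0.12, Txnrd1, at 0.10 and 0.12, and Gstt2, at 0.13 and 0.12. The other probes of Txnrd1 did not share this, with mean differences of -0.063 and -0.018, and the second probe of Gstt2 lay on both sides of zero, at -0.19 and 0.31. With normexp background correction the mean difference of Gstt2 was 0.053, against 0.13. Gpx3 was uneven, at 0.037 and 0.32, and Txnip lay on both sides of zero, at 0.091 and -0.13. With values this small on 2 differences, the order of the genes is not resolved.

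**Figure D5:**
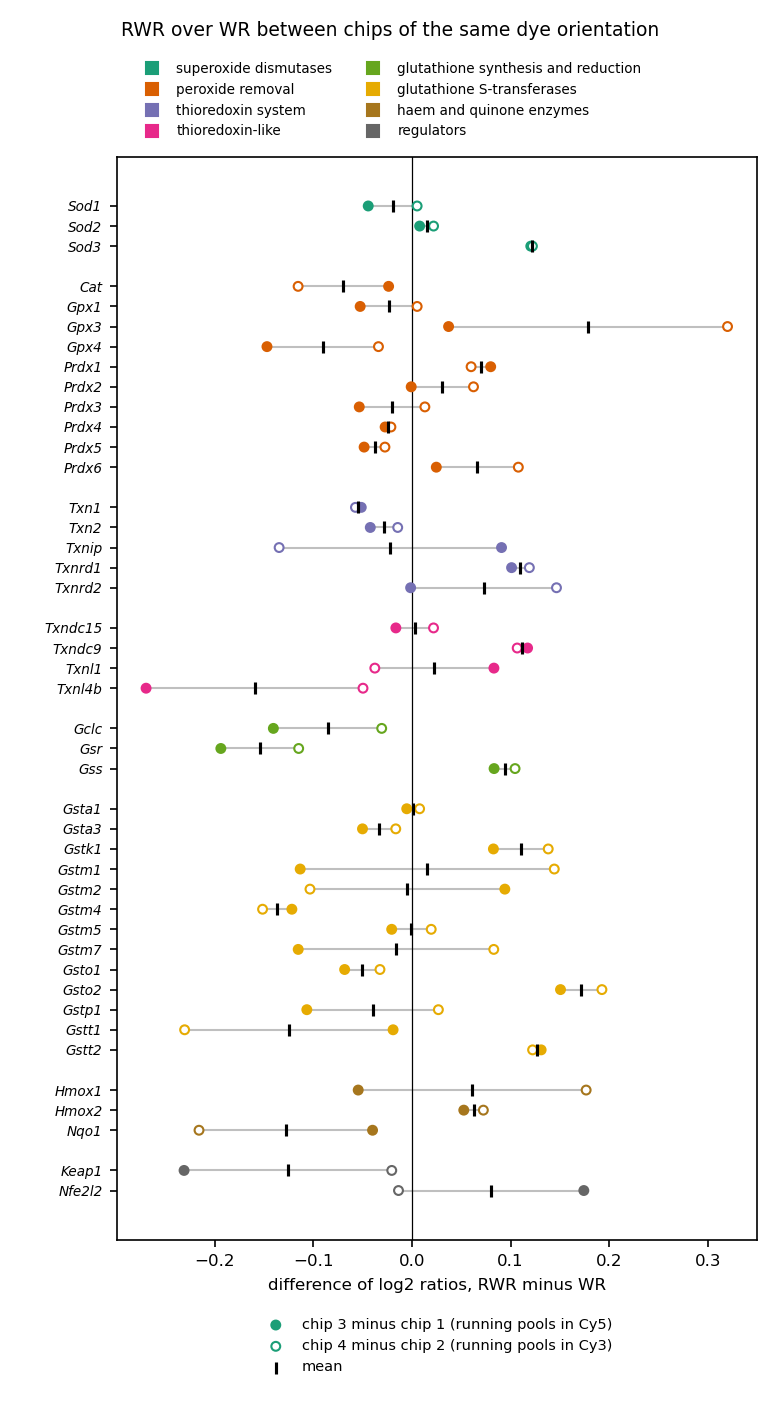
Difference of log2 ratios, RWR minus WR, for each of the 43 genes by role, with filled points for chip 3 minus chip 1, open points for chip 4 minus chip 2 and a bar for their mean. The brightest probes of Sod3, Txnrd1, Gstt2 and Gss lie to the right of zero and those of Gstm4 and Gsr to the left on both differences, within 0.2 log2 units.

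The 6 thioredoxin-like genes that the name pattern also takes in, Txndc2, Txndc8, Txndc9, Txndc15, Txnl1 and Txnl4b, hold a thioredoxin fold. They were set apart from the thioredoxin system by name. The 4 of them well above background had means between -0.14 and 0.052 in WR and between -0.11 and 0.019 in RWR. Txndc9 was below zero on both chips in WR, at -0.096 and -0.18, with a mean of -0.023 for its second probe. Txndc2 and Txndc8 were dim, with log2 ratios between -2.56 and 1.88.

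The 8 genes that were not well above background throughout were Gclm, Gpx2, Gpx6, Gsta2, Gstm3, Srxn1, Txndc2 and Txndc8. Where a probe was dim on every chip of one pool, a bound was computed from the lowest signal well above background on each chip. It gave a fold for Gpx6 in WR only, of 1.27 over sedentary. This value averages both chips, although the WR pool was well above background on 1 of 2, and is not a firm lower limit. The log2 ratios of the probe were 0.27 (error 0.40) and 0.73 (error 0.63). The second probe of Gpx6 was in neither pool well above background in WR and stood at -0.23 and -0.35. For the other dim genes the bound was under 1, or each pool or neither pool was well above background on at least 1 chip of the pair. No fold is given for them.

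Other genes of glutathione supply, thiol repair, NADPH supply, haem and metal handling and NRF2 regulation were counted in the same way. Of 78 on the list 57 had a named probe and 47 were well above background on all 4 chips, and none of the 57 was called in either comparison. The medians of the 47 were -0.0062 in WR, 0.0078 in RWR and 0.011 for RWR over WR. None was above zero on all 4 chips (5.38% of the named genes were). Cbs, Idh1 and Lancl1 were below it on all 4 (5.94%). In WR 3 of the 47 were above zero on both chips (14.7% of the named genes were) and 7 were below it (15.3%). In RWR 7 were above zero (15.8%) and 7 were below it (17%). Lower on both chips were, for example, Oplah in RWR, at -0.17 and -0.095, and Akr7a3 in WR, at -0.13 and -0.10. Mgst1, a microsomal glutathione transferase, stood at 0.26 and 0.16 in WR and at 0.13 and -0.033 in RWR. Ucp2, a mitochondrial carrier, stood at 0.32 and 0.12 in RWR and at 0.31 and -0.045 in WR, and Selenow, a selenoprotein, at 0.32 and 0.053 in RWR.

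Markers of cell types were read beside these values, since in pooled tissue fewer cells of a type and less RNA per cell cannot be told apart. Summed signals are given as they stood on each chip, without scaling between chips. Ttr, the main secreted protein of the choroid plexus, stood at -0.72 and -0.99 in WR and was called lower there, and at 0.20 and 0.042 in RWR. The summed signal of the 9 choroid plexus genes was 1710 to 1871 in WR, 2139 to 2429 in RWR and 2065 to 2440 in the sedentary pool, and 6 of the 9 (Kl, Clic6, Aqp1, Kcnj13, Prlr and Slc4a5) were not well above background. All 6 oligodendrocyte genes had means below zero in both comparisons. Below zero on both chips were 3 of them in WR (15.3% of the named genes were) and 2 in RWR (17%). In RWR Mbp was at -0.36 and -0.12, whereas Mag was at -0.16 and 0.079. The summed signal of the 6 genes was 58812 to 65242 in WR, 57899 to 69567 in RWR and 61076 to 78138 in the sedentary pool. Of the microglial genes, 5 of 6 had a probe and were well above background, with P2ry12 at 0.28 and 0.29 and Itgam at -0.071 and -0.49 in RWR, and summed signals of 3801 to 3974 in WR, 4223 to 4765 in RWR and 3628 to 4346 in the sedentary pool. The 7 astrocyte genes had medians of 0.0066 in WR and 0.0071 in RWR. The part of these differences in the values of Txnip, Gss, Gstm4 and Gpx3 was not tested.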

How the data were processed

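Scans were processed by the authors with Agilent Feature Extraction 11.0.1.1 (background subtraction, LOWESS dye normalization). The deposited files hold the processed intensity of each spot in both dyes, the log10 ratio of Cy5 over Cy3 with its log10 error (the ratio is set to 0 where not measurable) and the p-value of a single chip. Their series matrix, also deposited, holds log10 ratios as Cy5 over Cy3 on every chip. Control spots and 118 to 140 outlier spots per chip were dropped, each ratio was given as running over sedentary in log2, and spots of a probe were averaged. Array accessions (design on rn4) were looked up, versions ignored, among the RefSeq genes of GRCr8, for names only. Genes stand by their brightest probe. The members, lists and named genes were chosen with earlier results of these data known. Named were genes called, the 5 highest and 5 lowest means on one side of zero on both chips, and a list of core enzymes. Some genes outside this rule, among them Gstm7, Gsto1, Gsto2, Gpx6, Txndc9 and the genes of the pathway and marker lists, were named after their values were seen. Bounds used Aquantile values from limma 3.58.1 (R 4.3.3), and other steps Python 3.11.15 with numpy 2.4.6 and pandas 2.3.3. The call rule was tested on simulated data with noise set below the deposited error. Its recovery of changes near the 1.5-fold cutoff is not given here, so an absence of calls does not exclude such changes. Alternatives changed the background correction, centring, filters, probe rule, gene set and chips used. The number of chips limits the precision.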

Additional observations from a re-analysis of the deposited data

How the results depend on the processing

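No gene of the set was called with normexp or no background correction, median centring, a filter on dim probes, series matrix values, other probe rules, a narrower gene set, no p-value filter, p under 0.01 on 1 chip or equal cutoffs. With the dye term removed and no p-value filter, an alternative chosen after seeing the data, 1 gene was called higher in RWR (Gclm) and 1 lower (Txndc8), both dim. Read from 1 chip of a pair, 0 to 2 genes were called higher in WR (Gclm and Txndc8, without chip 1), 1 to 2 higher in RWR (Gclm and Txndc2 without chip 3, Srxn1 without chip 4) and 0 to 2 lower in RWR (Txndc2 and Txndc8, without chip 4), each of them dim. Leaving out 1 chip moved the median over the 51 genes to 0 to 0.018 in WR (0.00051 with both) and to -0.012 to 0.015 in RWR (-0.020 with both), and leaving out chips of one orientation moved that of RWR over WR to -0.021 to 0.013 (-0.0046 with all 4). Other alternatives moved these medians by less than the spread between the chips. Of 830 recomputed ratios of single genes, 788 stayed within that spread and 42 did not. Leaving out 1 chip of a pair could not move a ratio past it, and the filter on dim probes left each ratio unchanged. The count is therefore not a measure of stability. Over the alternatives that kept all chips, Txnip stayed between -0.20 and -0.16 in WR and between -0.22 and -0.17 in RWR, Gss between 0.032 and 0.10 and between 0.12 and 0.20, and Gpx3 in RWR between 0.12 and 0.28. Each ratio sets a running pool against the sedentary pool on the same chip. No test between rats was possible, since each group is 1 pool. The error of a single chip, 0.20 or more in log2 units, limits what can be seen here.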
